A study of Homo sapiens with 15 samples.

Results

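The unfolded protein response is represented here by 35 genes of the endoplasmic reticulum (ER): chaperones, disulfide enzymes, stress sensors and transcription factors, degradation factors, and genes of translocation, export and calcium. They were found by current or former symbol, and each was read from its brightest probe set, by the mean of 15 arrays, among those that carry exactly 1 gene symbol. On this rule 33 of the 35 were measured, among 19775 genes in all. The other members, PDIA5 and SYVN1, have only probe sets that carry several symbols and were not measured here. Of the 33, 27 have several single-symbol probe sets and 6 have 1.

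A549, a line of human lung carcinoma cells, was the source of all RNA, which was hybridised to Affymetrix HG-U133 Plus 2.0 arrays, with 3 arrays in each of 5 groups. All cells attached for 24 h before treatment. The 24 h groups received geldanamycin at 40 nM or vehicle, and the 48 h groups received vehicle, geldanamycin at 10 nM or geldanamycin at 40 nM. Per the labels, 40 nM was the IC50 and 10 nM the IC20, and the vehicle was DMSO at 0.4%. Geldanamycin binds the ATP pocket of HSP90 chaperones, among them HSP90B1, the form in the ER. Whether the 3 arrays of a group stand for independent cultures is not stated in the labels, and the p-values therefore rest on a spread between arrays that may be technical.

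When unfolded proteins accumulate in the ER, sensors in its membrane (ERN1, known as IRE1, EIF2AK3, known as PERK, and ATF6) are released from the chaperone HSPA5, known as BiP. ERN1 splices the XBP1 transcript and ATF6 is cut to free a transcription factor, and both factors raise genes for folding, degradation and export. EIF2AK3 phosphorylates the initiation factor eIF2α, which lowers translation but favours that of ATF4, whose targets include DDIT3 (CHOP) and TRIB3. The arrays measured transcripts, not sensor activity or XBP1 splicing.

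Values are the deposited log2 values made by RMA, and a difference is the mean of one group minus the mean of the other on this log2 scale, with its standard error (SE). A gene passed when limma's moderated test gave a Benjamini-Hochberg adjusted p, over all 19775 genes, under 0.05. The members did not move as a block in any comparison of treated arrays with vehicle of the same time. After 24 h at 40 nM, 8 of the 33 measured members were higher and 9 lower than in vehicle (24.2% and 27.3%), where 14.8% of all genes were higher and 16.7% lower. At 10 nM for 48 h, 7 were higher and 13 lower (21.2% and 39.4%), against 14.4% and 11.9% of all genes. At 40 nM for 48 h, 4 were higher and 8 lower (12.1% and 24.2%), against 10.5% and 10.7% of all genes. The share of rises at 48 h and 40 nM was thus near that of all genes. The median log2 difference of the members was 0.04 after 24 h at 40 nM, -0.04 after 48 h at 10 nM and -0.05 after 48 h at 40 nM, and that of all genes was within 0.02 of 0 in each. The 10 nM and 40 nM comparisons at 48 h share their 3 vehicle arrays.

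ERO1B and WFS1 passed as higher in all 3 comparisons with vehicle, and HSPA5 and HERPUD1 as lower in all 3. Another 6 members passed as higher in one comparison and lower in another: DNAJC10, PDIA3, P4HB, ERO1A, CREB3L2 and SEC24D. The members that passed in none of the 3 were ATF6, EIF2AK3, SEL1L, DERL1, DERL3 and SEC61B.

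**Figure D1:**
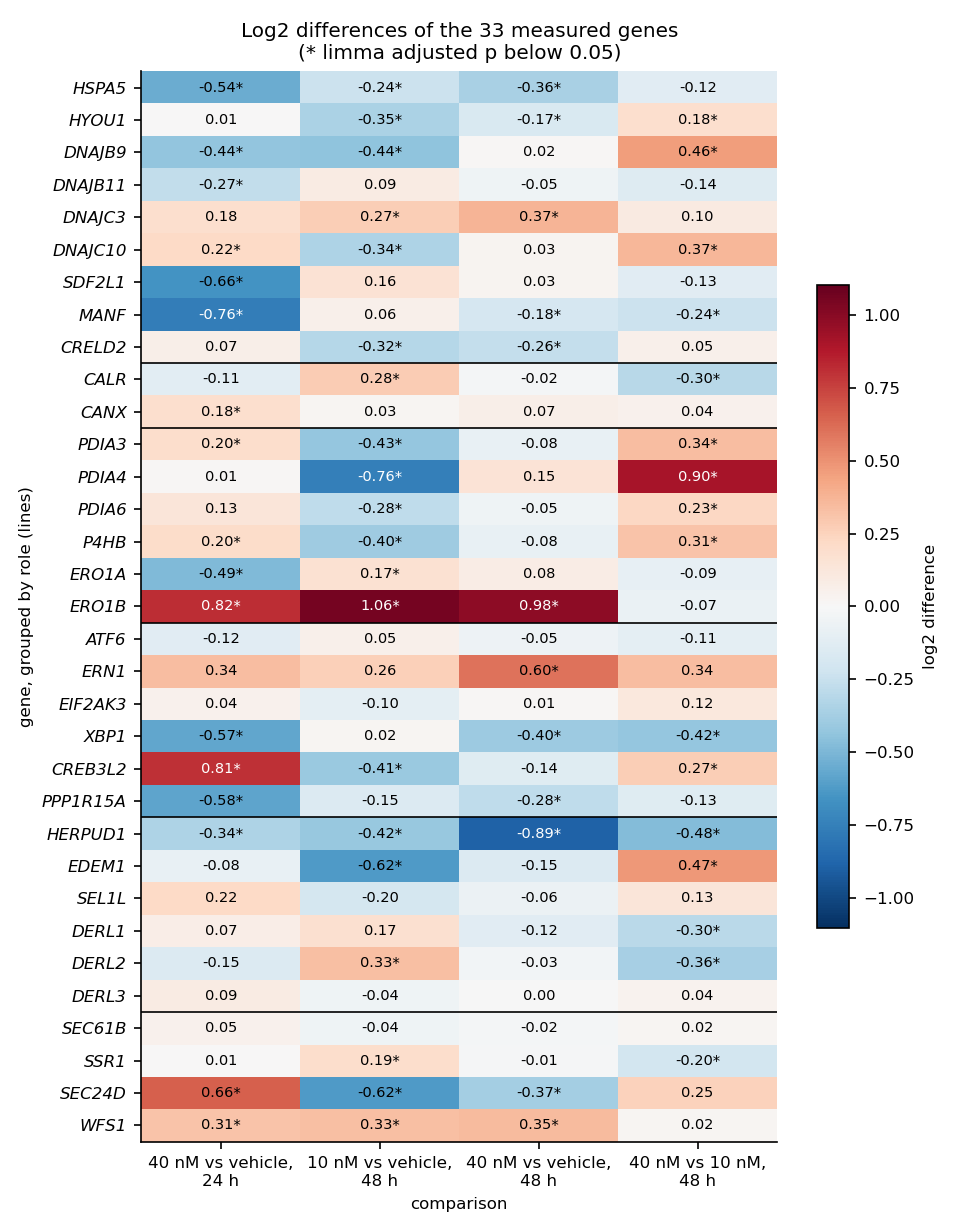
Log2 differences of the 33 measured members (rows, grouped by role) in 4 comparisons (columns), coloured blue for lower and red for higher, with an asterisk where limma's adjusted p was under 0.05. HSPA5 and HERPUD1 are blue and ERO1B and WFS1 red in the 3 vehicle comparisons, while the isomerases PDIA3, PDIA4, PDIA6 and P4HB are blue with an asterisk at 10 nM alone.

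The arrays at 10 nM stood apart from the others in their control probe sets, which bears on every 10 nM value below. Poly-A spike transcripts, which are added before labelling, averaged 3.37 ± 0.04 on the 10 nM arrays (SD, n = 3) and 5.93 ± 0.06 on the vehicle arrays at 48 h. The ACTB 3′ probe set exceeded the 5′ probe set by 2.68 ± 0.03 on the 10 nM arrays, by 0.44 ± 0.03 on the 40 nM arrays and by 0.35 ± 0.06 on the vehicle arrays. For GAPDH the same measure was 0.13, 0.15 and 0.15. Epithelial and A549 marker genes averaged 10.4 to 11.7 in every array, and those of alveolar type 2 cells, leukocytes, plasma cells, fibroblasts and endothelium averaged 3.8 to 5.6. Of the 9 epithelial and A549 markers 7 were higher and 1 lower after 24 h at 40 nM (77.8% and 11.1%), where 14.8% of all genes were higher and 16.7% lower. After 48 h at 10 nM 2 were higher and 3 lower (22.2% and 33.3%), against 14.4% and 11.9% of all genes. After 48 h at 40 nM 6 were higher and 1 lower (66.7% and 11.1%), against 10.5% and 10.7% of all genes. CDH1, an epithelial cadherin, rose by 2.80 ± 0.06, 2.82 ± 0.06 and 1.78 ± 0.06 in these comparisons, and KRT19, a keratin, differed from vehicle at 48 h by -2.41 ± 0.15 at 10 nM and 0.64 ± 0.15 at 40 nM. Of the 10 fibroblast markers 2 were higher (20%) and none lower after 24 h at 40 nM, and none higher and 3 lower (30%) after 48 h at 10 nM. After 48 h at 40 nM 1 was higher and 1 lower (10% each), near the shares of all genes there. LUM, a matrix proteoglycan, was at -3.45 ± 0.15 and -0.84 ± 0.15 at 48 h. The part of these differences in the results was not tested.

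Several members carry, near the start of transcription, the sequence elements known as ER stress elements, through which ATF6 and XBP1 act. The promoter windows of RefSeq (GRCh38.p14, 250 bases before to 50 after a start) hold 31 of the 35 members in 38 windows. The ER stress element, searched as CCAAT, any 9 bases and CCACG on both strands, was found in 27 of 35116 windows of all genes (0.0769%) and in 9 of the 38 member windows (23.7%), those of CALR, CANX, CRELD2, ERO1B, HSPA5, PDIA6 and XBP1. The 3 CANX windows overlap and share 1 site. Element II, searched as ATTGG, any base and CCACG, was found in 19 of all windows (0.0541%) and in 3 of the member windows (7.89%), those of HERPUD1, HYOU1 and SDF2L1. The sites with their flanks are shown because these genes include both kinds of outcome, the falls of HSPA5 and HERPUD1 and the rise of ERO1B. Each is written 5′ to 3′ along the gene's own strand, with the element, or its reverse complement, and its spacer in capitals, and in HYOU1 also the adjoining letters of the unfolded protein response element described after the sequences.
HSPA5 (chr9:125241371-125241429, minus strand): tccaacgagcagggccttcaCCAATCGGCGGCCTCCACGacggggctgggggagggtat
XBP1 (chr22:28800583-28800641, minus strand): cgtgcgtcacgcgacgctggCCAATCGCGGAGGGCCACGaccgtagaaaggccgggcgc
PDIA6 (chr2:10812833-10812891, minus strand): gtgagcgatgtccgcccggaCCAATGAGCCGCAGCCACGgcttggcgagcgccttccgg
CANX (chr5:179698758-179698816, plus strand): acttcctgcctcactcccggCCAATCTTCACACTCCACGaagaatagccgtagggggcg
CALR (chr19:12938364-12938422, plus strand): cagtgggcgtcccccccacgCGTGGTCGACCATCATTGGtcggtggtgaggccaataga
CRELD2 (chr22:49918534-49918592, plus strand): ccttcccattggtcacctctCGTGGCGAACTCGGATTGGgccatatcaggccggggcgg
ERO1B (chr1:236282163-236282208, minus strand): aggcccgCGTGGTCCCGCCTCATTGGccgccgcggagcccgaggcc
HERPUD1 (chr16:56932005-56932055, plus strand): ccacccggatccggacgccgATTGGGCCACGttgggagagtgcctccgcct
SDF2L1 (chr22:21642094-21642144, plus strand): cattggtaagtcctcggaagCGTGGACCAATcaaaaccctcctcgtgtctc
HYOU1 (chr11:119057254-119057413, minus strand): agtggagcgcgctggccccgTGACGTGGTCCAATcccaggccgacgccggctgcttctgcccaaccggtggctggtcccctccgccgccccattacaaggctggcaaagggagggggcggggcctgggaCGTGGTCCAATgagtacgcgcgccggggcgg

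The HSPA5 site lies at -66 to -48 from the start and the ERO1B site at -243 to -225. HYOU1 has a pair of element II sites, at -185 to -175 and -79 to -69, and the first overlaps a match to the unfolded protein response element (TGACGTGG, both strands) at -188 to -181. That element was in 256 of all windows (0.729%) and in 2 member windows (5.26%), those of DNAJC10 and HYOU1. Its core ACGTG was in 7518 of all windows (21.4%) and in 14 member windows (36.8%). A match is a description of letters and not a binding site.

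Members with an element went both ways. Of the 10 members with either ER stress element, 2 rose (CANX and ERO1B) and 4 fell (HSPA5, XBP1, HERPUD1 and SDF2L1) after 24 h at 40 nM, with a median log2 difference of -0.05. Of the 19 members with a window and neither element 4 rose and 5 fell, with a median of 0.01, and of all 15384 measured genes with a window 15.6% rose and 17.6% fell. After 48 h at 10 nM 2 of the 10 rose and 5 fell, with a median of -0.11, against 5 and 6 of the 19 and 14.9% and 12.4% of all genes. After 48 h at 40 nM 1 of the 10 rose and 5 fell, with a median of -0.11, against 3 and 2 of the 19 and 10.9% and 11.4% of all genes. The difference between members with and without an element was not tested. Among 27 other measured genes with either element in a window, 9 rose and 2 fell after 24 h at 40 nM, with a median of 0.10. In those genes 7 rose and 4 fell at 10 nM and 6 rose and 1 fell at 40 nM after 48 h, with medians of 0.05 and 0.03.

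Of the 9 chaperones and J-proteins 5 fell and 1 rose after 24 h at 40 nM (55.6% and 11.1%), with a median log2 difference of -0.27. Of all genes 16.7% fell and 14.8% rose there. The counts were the same after 48 h at 10 nM, with a median of -0.24, against 11.9% and 14.4% of all genes. After 48 h at 40 nM 4 fell and 1 rose (44.4% and 11.1%), with a median of -0.05, against 10.7% and 10.5% of all genes. HSPA5, the main Hsp70 chaperone of the ER, had log2 values of 11.49, 11.40 and 11.48 after 24 h at 40 nM, against 12.04, 12.03 and 11.94 in vehicle. The groups did not overlap. HSPA5 fell by 0.54 ± 0.05 (SE), 1.46-fold lower than in vehicle (limma adjusted p = 1.7e-06). At 48 h its values were 11.98, 12.01 and 12.05 in vehicle, 11.80, 11.79 and 11.73 at 10 nM, and 11.64, 11.69 and 11.63 at 40 nM, and no treated array reached a vehicle array. The differences from vehicle were -0.24 ± 0.05 at 10 nM (limma adjusted p = 0.0033) and -0.36 ± 0.05 at 40 nM (0.00018). A dimmer HSPA5 probe set gave -0.31 after 24 h at 40 nM and 0.22 and 0.00 at 48 h, so with the mean of both the 48 h calls were lost.

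MANF, a secreted stress-induced factor that binds HSPA5, showed the largest fall of any member at 24 h. Its values were 9.17, 9.20 and 9.23 after 24 h at 40 nM, against 9.99, 9.97 and 9.93 in vehicle, a difference of -0.76 ± 0.05 or 1.69-fold lower (limma adjusted p = 5.8e-08). At 48 h the MANF values were 10.10, 10.13 and 10.17 in vehicle, 10.17, 10.21 and 10.20 at 10 nM, and 9.93, 9.91 and 10.02 at 40 nM. The 40 nM arrays lay below the vehicle arrays by 0.18 on average, a call that was lost when any of 4 single arrays was left out. The 10 nM values reached above those of vehicle, and that difference of 0.06 ± 0.05 did not pass.

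SDF2L1, a partner of the J-protein DNAJB11 that keeps HSPA5 clients soluble, was lower at 24 h alone. It had 8.18, 8.31 and 8.32 after 24 h at 40 nM, against 9.02, 8.91 and 8.85 in vehicle, a difference of -0.66 ± 0.07 or 1.58-fold lower (limma adjusted p = 8.7e-06). At 48 h SDF2L1 had 9.11, 9.02 and 9.06 in vehicle, 9.28, 9.29 and 9.11 at 10 nM, and 8.98, 9.11 and 9.21 at 40 nM. The 48 h groups of vehicle and 40 nM overlapped, and neither 48 h difference passed.

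The J-proteins, which hand clients to HSPA5 and stimulate its ATPase, went different ways. DNAJB9 fell by 0.44 ± 0.10 after 24 h at 40 nM, with 7.03, 7.19 and 7.25 against 7.78, 7.46 and 7.54 in vehicle (limma adjusted p = 0.0033). It also fell by 0.44 ± 0.10 after 48 h at 10 nM, and at 40 nM the 48 h difference was 0.02. The other DNAJB9 probe sets gave -0.06 and -0.38 at 24 h and -0.86 and -0.20 at 10 nM, and on the brighter of them, used when shared-sequence probe sets are left out, the 24 h call was lost (limma adjusted p = 0.74). DNAJB11 fell by 0.27 ± 0.07 at 24 h alone. DNAJC3, known as p58IPK, which can inhibit EIF2AK3 and also acts as a co-chaperone in the ER lumen, rose at both doses at 48 h. Its values at 48 h were 8.88, 8.83 and 8.83 in vehicle, 9.17, 9.16 and 9.02 at 10 nM, and 9.11, 9.26 and 9.27 at 40 nM, with no overlap between treated and vehicle arrays. The DNAJC3 differences were 0.27 ± 0.08 at 10 nM (limma adjusted p = 0.018) and 0.37 ± 0.08 at 40 nM (0.0030), and the 10 nM call was lost without vehicle replicate 2 or 3 or 10 nM replicate 1 or 2. DNAJC10, a reductase that breaks disulfides of proteins bound for degradation, rose by 0.22 ± 0.07 after 24 h at 40 nM, a call lost without replicate 3 of either group, and fell by 0.34 ± 0.07 after 48 h at 10 nM.

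HYOU1, the nucleotide exchange factor of HSPA5, and CRELD2, a stress-induced ER protein, were lower at 48 h and not at 24 h. HYOU1 differed by -0.35 ± 0.05 at 10 nM and -0.17 ± 0.05 at 40 nM (limma adjusted p = 0.00014 and 0.034), and CRELD2 by -0.32 ± 0.07 and -0.26 ± 0.07 (0.0051 and 0.020). At 24 h the differences were 0.01 for HYOU1 and 0.07 for CRELD2. The HYOU1 call at 40 nM was lost when any 1 of the 6 arrays compared was left out, and the CRELD2 call when any of 4 was.

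**Figure D2:**
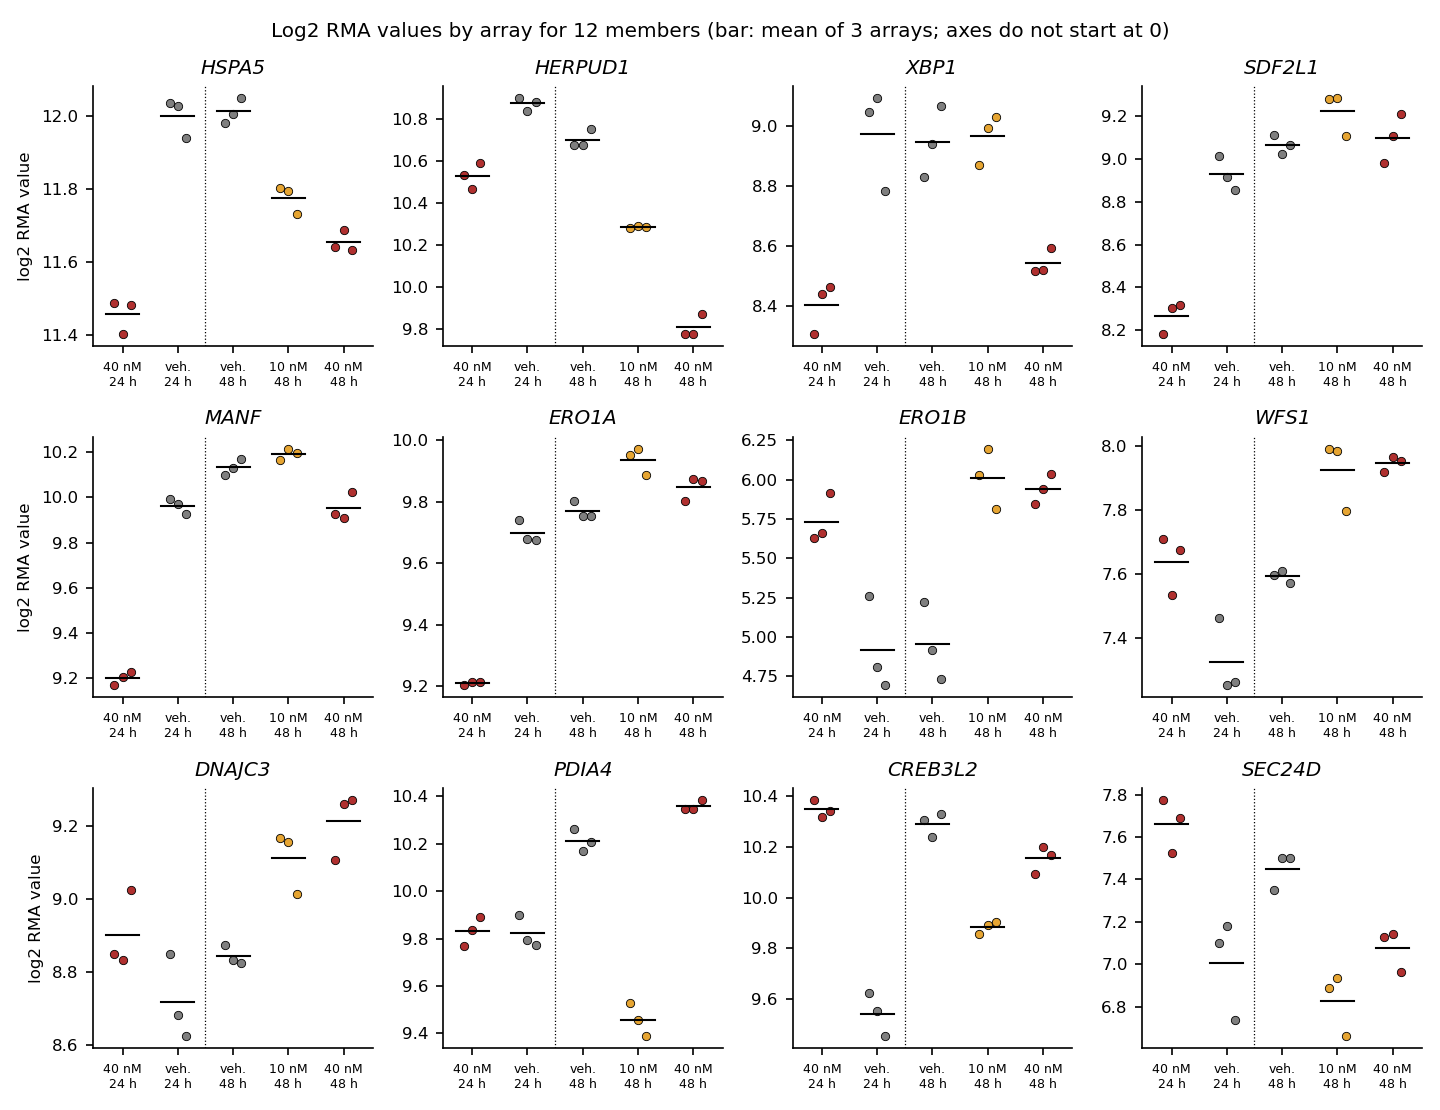
Log2 RMA values of 12 members on each of the 15 arrays (points, 3 per group, red for 40 nM, orange for 10 nM, grey for vehicle), with the group mean as a bar, 24 h left of the dotted line and 48 h right of it, and an axis of its own for each gene that does not start at 0. HSPA5 and HERPUD1 lie below vehicle in all treated groups, and SDF2L1 and ERO1A are low at 24 h alone.

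The lectin chaperones CALR and CANX hold glycoproteins during folding. CANX rose by 0.18 ± 0.04 after 24 h at 40 nM, with 12.15, 12.14 and 12.16 against 11.97, 11.95 and 11.97 in vehicle (limma adjusted p = 0.0052). At 48 h its differences on this probe set, 0.03 at 10 nM and 0.07 at 40 nM, did not pass. Without shared-sequence probe sets CANX was higher at 48 h, by 0.49 and 0.42 (limma adjusted p = 0.0016 and 0.0058). Its probe sets of mean log2 value 7 or more lay on both sides of 0 at 10 nM, with a range of 1.09. CALR rose by 0.28 ± 0.06 after 48 h at 10 nM, and its difference at 40 nM was -0.02. Another CALR probe set gave 0.26 at 10 nM and a dimmer one -0.04.

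The disulfide isomerases PDIA3, PDIA4, PDIA6 and P4HB, which form and rearrange disulfide bonds, fell at 10 nM. All 4 passed as lower after 48 h at 10 nM and none after 48 h at 40 nM, and PDIA3 and P4HB were higher after 24 h at 40 nM. PDIA4 had 10.26, 10.17 and 10.21 in vehicle at 48 h, 9.53, 9.46 and 9.39 at 10 nM, and 10.35, 10.35 and 10.38 at 40 nM. The 10 nM arrays lay below all others, and the difference from vehicle was -0.76 ± 0.06, 1.69-fold lower (limma adjusted p = 3.3e-07). The second, dimmer PDIA4 probe set gave -0.21 at 10 nM and did not pass (limma adjusted p = 0.063). The difference of 40 nM from vehicle was 0.15 ± 0.06 for PDIA4 and did not pass, while the second probe set gave 0.30 and passed (0.014). That probe set was also higher after 24 h at 40 nM, by 0.41, where the one used gave 0.01.

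P4HB had 3 probe sets, and they disagreed in size at 10 nM. The one used gave 11.73, 11.73 and 11.72 at 10 nM, against 12.11, 12.17 and 12.08 in vehicle, a difference of -0.40 ± 0.05 (limma adjusted p = 4.3e-05). The other P4HB probe sets gave -0.60 and -1.31. After 24 h at 40 nM the P4HB probe sets gave 0.20, 0.24 and 0.32. PDIA3 differed by -0.43 ± 0.05 at 10 nM on the probe set used, and by 0.28 and 0.31 on its dimmer ones. PDIA6 differed by -0.28 ± 0.05 on the probe set used and by -0.37, -0.54 and 0.10 on the others.

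Disagreement between the probe sets of a gene was larger at 10 nM than in the 40 nM comparisons. Over the 13 members with at least 2 probe sets of mean log2 value 7 or more, the median range between probe sets was 0.46 for 10 nM against vehicle, with 6 ranges over 0.5. It was 0.22 after 24 h at 40 nM and 0.32 after 48 h at 40 nM, with 1 range over 0.5 in each. Over 2823 other genes of this kind the median range was 0.22 at 10 nM, 0.13 after 24 h at 40 nM and 0.11 after 48 h at 40 nM. The part of the differences in control probe sets in this was not tested.

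**Figure D3:**
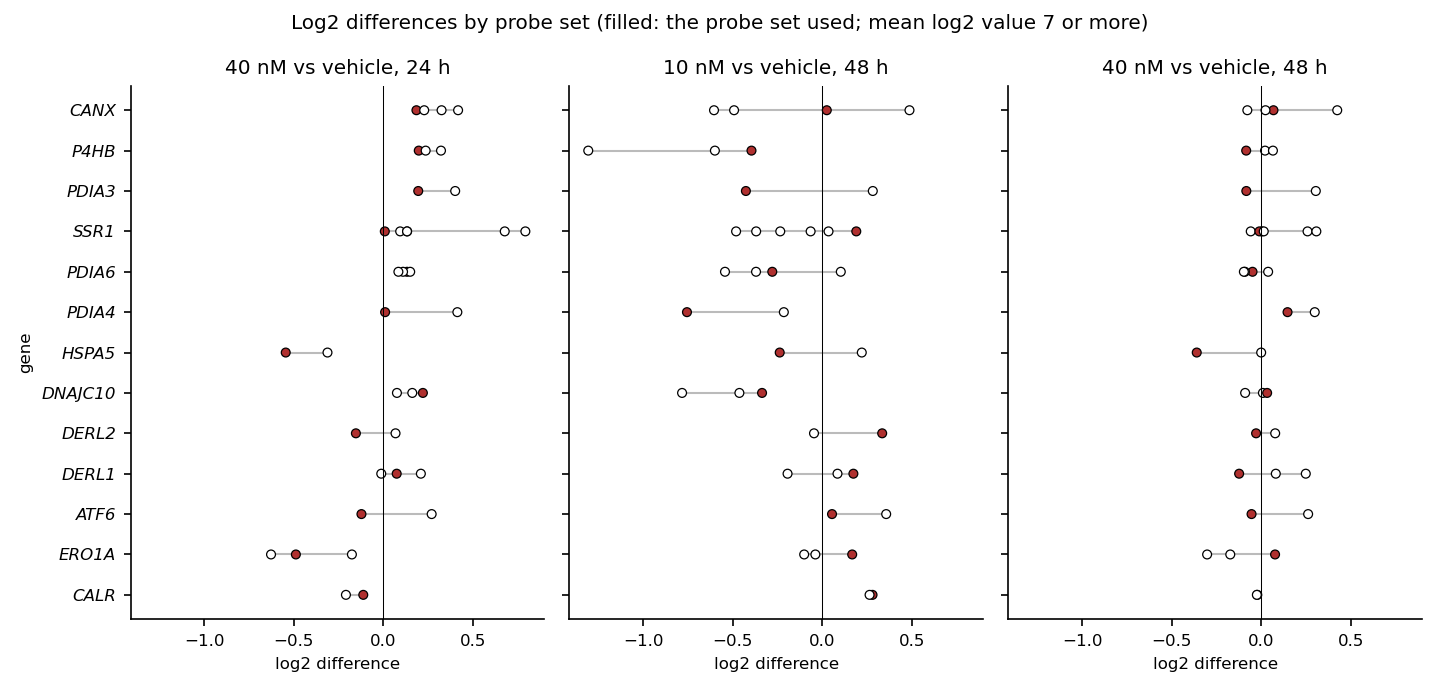
Log2 differences from vehicle of each probe set (points) of the 13 members with at least 2 probe sets of mean log2 value 7 or more, in 3 comparisons, with the probe set used filled. The 10 nM panel is the widest, with P4HB between -1.31 and -0.40. Among the genes on both sides of 0 there are CANX, PDIA3, SSR1, PDIA6 and HSPA5.

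The ER oxidases ERO1A and ERO1B, which pass electrons from the isomerases to oxygen, moved in opposite directions at 24 h. ERO1A had 9.20, 9.21 and 9.21 after 24 h at 40 nM, against 9.74, 9.68 and 9.67 in vehicle, a difference of -0.49 ± 0.05 or 1.40-fold lower (limma adjusted p = 2.8e-06). At 48 h ERO1A had 9.80, 9.75 and 9.75 in vehicle, 9.95, 9.97 and 9.89 at 10 nM, and 9.80, 9.87 and 9.87 at 40 nM. Its rise at 10 nM of 0.17 ± 0.05 was lost when any of 4 arrays was left out, and its other probe sets gave -0.10 and -0.04 there.

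ERO1B showed the largest rise of any member in each comparison with vehicle. Its values were 5.63, 5.66 and 5.91 after 24 h at 40 nM, against 5.26, 4.81 and 4.69 in vehicle, a difference of 0.82 ± 0.15 or 1.76-fold higher (limma adjusted p = 0.00082). At 48 h ERO1B had 5.22, 4.92 and 4.73 in vehicle, 6.03, 6.20 and 5.81 at 10 nM, and 5.85, 5.94 and 6.04 at 40 nM. No treated array overlapped the vehicle arrays of its time. The 48 h differences were 1.06 ± 0.15 at 10 nM and 0.98 ± 0.15 at 40 nM, 2.08-fold and 1.98-fold higher (limma adjusted p = 0.00013 and 0.00034). These are dim values, and a second, dimmer probe set of ERO1B gave 0.45 at 24 h and 0.07 in both comparisons at 48 h.

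Of the 3 sensors, ERN1 alone passed in a comparison of treated arrays with vehicle of the same time. This holds for the probe sets used, with all arrays weighted equally. ATF6 and EIF2AK3 passed in none, with differences from vehicle between -0.12 and 0.05 for both. For ATF6 this rested on the probe set. With the mean of its probe sets it was higher after 24 h at 40 nM, by 0.21, and after 48 h at 10 nM, by 0.35 (limma adjusted p = 0.030 and 0.0013). After 48 h at 40 nM ATF6 passed in no setting. With all arrays weighted equally, ERN1 passed as higher after 48 h at 40 nM alone. Its values at 48 h were 6.52, 6.30 and 6.49 in vehicle, 6.75, 6.78 and 6.57 at 10 nM, and 6.90, 7.21 and 7.0 at 40 nM. The 40 nM difference was 0.60 ± 0.15, 1.52-fold (limma adjusted p = 0.011). It did not pass without replicate 2 of either group, at 0.51 and 0.53. The ERN1 differences of 0.34 after 24 h at 40 nM and 0.26 after 48 h at 10 nM did not pass (limma adjusted p = 0.11 and 0.26). With weights per array both passed, at 0.28 and 0.30 (limma adjusted p = 0.023 and 0.019). Without vehicle replicate 1 the 24 h difference passed at 0.53 (0.0084).

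XBP1, the transcription factor downstream of ERN1, was lower at 40 nM at both times. Its values were 8.30, 8.44 and 8.46 after 24 h at 40 nM, against 9.05, 9.09 and 8.78 in vehicle, a difference of -0.57 ± 0.09 or 1.49-fold lower (limma adjusted p = 0.00013). At 48 h XBP1 had 8.83, 8.94 and 9.07 in vehicle, 8.87, 8.99 and 9.03 at 10 nM, and 8.52, 8.52 and 8.59 at 40 nM. The vehicle and 10 nM arrays overlapped, with a difference of 0.02, and the 40 nM arrays lay below both. The 40 nM difference was -0.40 ± 0.09 from vehicle and -0.42 ± 0.09 from 10 nM (limma adjusted p = 0.0038 and 0.0022).

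PPP1R15A, known as GADD34, which directs the phosphatase that reverses eIF2α phosphorylation, was also lower at 40 nM at both times. It had 6.47, 6.15 and 6.21 after 24 h at 40 nM, against 6.93, 6.81 and 6.81 in vehicle, a difference of -0.58 ± 0.08 (limma adjusted p = 3.9e-05). At 48 h the 40 nM difference was -0.28 ± 0.08, a call lost without vehicle replicate 1 (limma adjusted p = 0.080) or 40 nM replicate 2 (0.062). A second PPP1R15A probe set gave -0.54 at 24 h and -0.14 at 48 h.

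CREB3L2, a membrane-bound transcription factor related to ATF6 and known in cartilage for raising export genes, was 1.75-fold higher after 24 h at 40 nM. Its values were 10.39, 10.32 and 10.34 after 24 h at 40 nM, against 9.62, 9.55 and 9.45 in vehicle, a difference of 0.81 ± 0.06 (limma adjusted p = 9.2e-08). At 48 h CREB3L2 had 10.31, 10.24 and 10.33 in vehicle, 9.86, 9.89 and 9.90 at 10 nM, and 10.10, 10.20 and 10.17 at 40 nM. The 10 nM arrays were lower than vehicle by 0.41 ± 0.06. Another CREB3L2 probe set, with dimmer values, gave 0.12 after 24 h at 40 nM and 0.23 at 10 nM, so size and direction rest on the probe set.

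Among the genes of ER-associated degradation, which returns misfolded proteins to the proteasome, HERPUD1 was the one that passed in all 3 comparisons with vehicle. HERPUD1 assembles the degradation complex around SYVN1 and is known as one of the genes most responsive to ER stress. Its values were 10.53, 10.47 and 10.59 after 24 h at 40 nM, against 10.90, 10.84 and 10.88 in vehicle, a difference of -0.34 ± 0.05 (limma adjusted p = 0.00016). At 48 h HERPUD1 had 10.67, 10.68 and 10.75 in vehicle, 10.28, 10.29 and 10.29 at 10 nM, and 9.78, 9.77 and 9.87 at 40 nM. The 3 groups at 48 h did not overlap. The differences were -0.42 ± 0.05 at 10 nM and -0.89 ± 0.05 at 40 nM, 1.33-fold and 1.86-fold lower than vehicle (limma adjusted p = 4.0e-05 and 4.6e-08). A dim second HERPUD1 probe set, with a mean log2 value of 4.82, gave 0.15 at 24 h, and -0.17 and -0.24 at 48 h, none of which passed.

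EDEM1, which trims mannose from glycoproteins marked for degradation, fell at 10 nM alone. Its values at 48 h were 8.44, 8.35 and 8.45 in vehicle, 7.69, 7.85 and 7.83 at 10 nM, and 8.30, 8.25 and 8.24 at 40 nM. The 10 nM difference was -0.62 ± 0.06, 1.54-fold lower (limma adjusted p = 2.6e-06). DERL2, a channel protein of the same pathway, rose by 0.33 ± 0.07 at 10 nM, while its second probe set gave -0.05. SEL1L, the partner of SYVN1, and DERL1 and DERL3 passed in no comparison with vehicle. In 7 of 16 alternative fits SEL1L did pass as higher after 24 h at 40 nM, and in 2 of 16 as lower at 10 nM. DERL1 passed as higher at 10 nM in 5 of 17. Without shared-sequence probe sets DERL1 was also higher at 40 nM, by 0.21 after 24 h and 0.25 after 48 h (limma adjusted p = 0.041 and 0.025).

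In translocation, export and calcium, SEC24D was the member with opposite calls at the 2 times at 40 nM. SEC24D is a cargo-binding subunit of the COPII coat that carries proteins out of the ER. Its values were 7.78, 7.53 and 7.69 after 24 h at 40 nM, against 7.10, 7.18 and 6.74 in vehicle, a difference of 0.66 ± 0.11 or 1.57-fold higher (limma adjusted p = 0.00039). At 48 h SEC24D had 7.35, 7.50 and 7.50 in vehicle, 6.89, 6.94 and 6.66 at 10 nM, and 7.13, 7.14 and 6.96 at 40 nM. The differences were -0.62 ± 0.11 at 10 nM and -0.37 ± 0.11 at 40 nM (limma adjusted p = 0.00081 and 0.030). The 40 nM call at 48 h was lost when any of 5 arrays was left out and with the mean of the SEC24D probe sets.

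WFS1, wolframin, an ER membrane protein of calcium balance, rose by nearly the same amount in each comparison. It had 7.71, 7.53 and 7.67 after 24 h at 40 nM, against 7.46, 7.25 and 7.26 in vehicle, a difference of 0.31 ± 0.07 (limma adjusted p = 0.0040). At 48 h WFS1 had 7.60, 7.61 and 7.57 in vehicle, 7.99, 7.98 and 7.80 at 10 nM, and 7.92, 7.96 and 7.95 at 40 nM. The 48 h differences were 0.33 ± 0.07 at 10 nM and 0.35 ± 0.07 at 40 nM, with no overlap in any comparison, and its second probe set gave 0.46, 0.22 and 0.36. SEC61B, of the translocation channel, passed in no comparison. SSR1, of the translocon-associated complex, rose by 0.19 ± 0.06 at 10 nM on the probe set used, while its 5 others lay between -0.48 and 0.04, and the call was lost when any of 5 single arrays was left out. After 24 h at 40 nM the SSR1 probe set used gave 0.01 and did not pass. Without shared-sequence probe sets SSR1 was higher there by 0.79, and with the mean of probe sets by 0.31 (limma adjusted p = 1.2e-05 and 0.0018).

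The doses were compared directly at 48 h. Of the 33 members 9 were higher and 7 lower at 40 nM than at 10 nM (27.3% and 21.2%), where 11.9% of all genes were higher and 14.5% lower. The higher ones included all 4 isomerases, by 0.90 ± 0.06 for PDIA4, 0.34 ± 0.05 for PDIA3, 0.31 ± 0.05 for P4HB and 0.23 ± 0.05 for PDIA6, and also EDEM1 and DNAJB9 by 0.47 ± 0.06 and 0.46 ± 0.10. The lower ones included HERPUD1 by -0.48 ± 0.05, XBP1 by -0.42 ± 0.09 and DERL2 by -0.36 ± 0.07. Some of these calls rested on the probe set: with the mean of probe sets PDIA3 was 0.077, XBP1 -0.17 and DERL2 -0.12, and without shared-sequence probe sets HERPUD1 was -0.072 and PDIA6 -0.065, none of which passed. ERO1B and WFS1, higher than vehicle at both doses, differed between doses by -0.07 ± 0.15 and 0.02 ± 0.07. HSPA5 differed between doses by -0.12 ± 0.05 and did not pass. This comparison shares its arrays with the vehicle comparisons, and the control probe sets named above differ between its arms.

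The effect of 40 nM at 48 h was set against its effect at 24 h so that any offset common to the arrays of one time cancels. The effect differed between times in 10 of the 33 members, 4 upward and 6 downward (12.1% and 18.2%), against 9.18% and 8.11% of all genes. SDF2L1, MANF, ERO1A and DNAJB9 were lower than vehicle at 24 h and nearer to it at 48 h. HERPUD1 was lower at both times and more so at 48 h, by a further -0.55 ± 0.08 (limma adjusted p = 0.00015). CREB3L2 and SEC24D were higher than vehicle at 24 h and below it at 48 h, CREB3L2 by an amount that did not pass. For HSPA5, XBP1 and PPP1R15A, lower at both times, the differences between times of 0.19 ± 0.07, 0.17 ± 0.12 and 0.30 ± 0.11 did not pass.

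**Figure D4:**
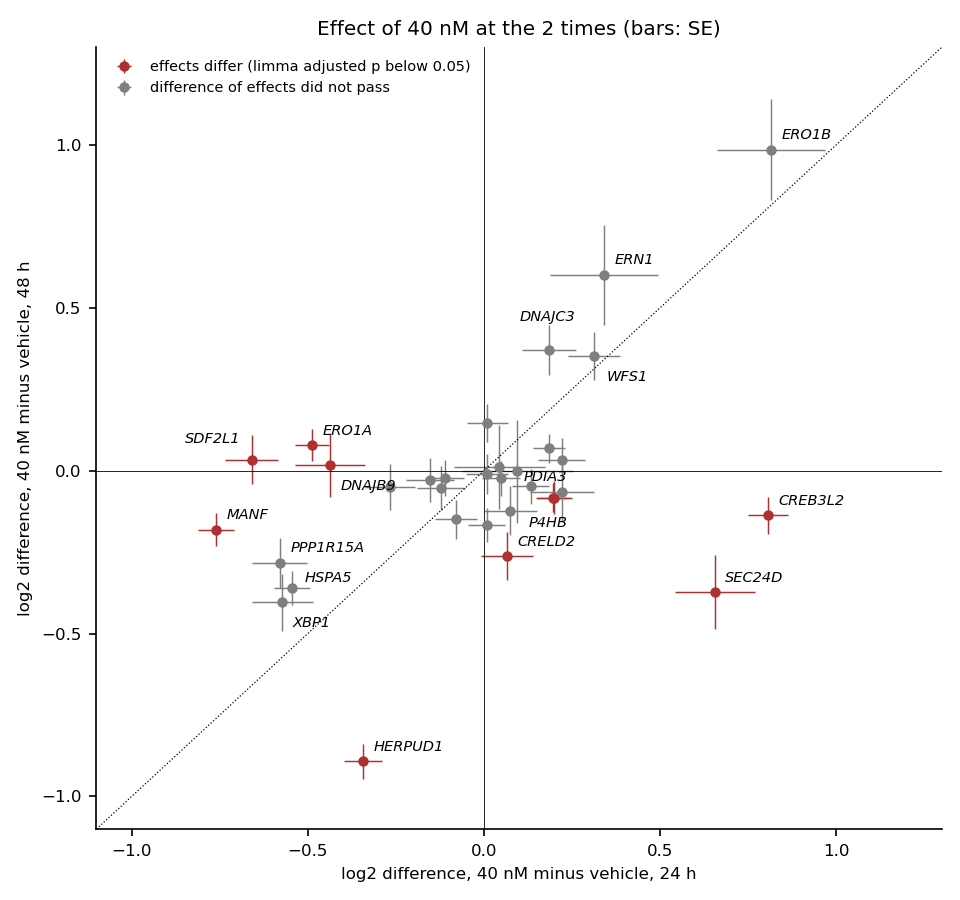
Log2 difference of 40 nM from vehicle at 24 h (x axis) and at 48 h (y axis) for the 33 members, with SE bars, a dotted line of equal effects, and red where the difference between times passed limma's test. SDF2L1, MANF, ERO1A and DNAJB9 lie left of 0 and near the horizontal axis, CREB3L2 and SEC24D lower right, and HERPUD1 far below the line.

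Levels in vehicle at 48 h and at 24 h could not be compared on 1 scale. Averaged over all probe sets, vehicle arrays had a log2 value of 5.52 at 48 h and 5.13 at 24 h, with SDs of 0.003 and 0.0016 (n = 3 each). After quantile normalization over all 15 arrays, 3 members were higher and 19 lower in vehicle at 48 h (9.09% and 57.6%), against 20.1% and 22.7% of all genes. In the values as deposited 18 were higher and 1 lower, where the mean over all probe sets was also higher at 48 h. The shares of all genes in the deposited values are not given here, so that count is no result about the members. The direction thus rested on the normalization. Whether the arrays of each time were normalized in a separate run is not stated in the sources used here. Culture time and any such difference in processing cannot be told apart.

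The genes around the members were described from 7 further lists. The ER-resident HSP90, HSP90B1, rose by 0.33 ± 0.09 after 24 h at 40 nM and by 0.45 ± 0.09 after 48 h at 10 nM, and differed by 0.0005 ± 0.0913 after 48 h at 40 nM (limma adjusted p = 0.013, 0.0019 and 0.999). After 24 h at 40 nM, where 14.8% of all genes were higher and 16.7% lower, 12 of 37 other measured ER folding genes were higher and 7 lower (32.4% and 18.9%). Among them FKBP7, a prolyl isomerase, rose by 0.81 ± 0.10 and SERPINH1, the collagen chaperone, by 0.71 ± 0.06. Of 23 other degradation genes 4 were higher and 6 lower (17.4% and 26.1%). Of 27 other translocon, signal peptidase and glycosylation genes 8 were higher and 5 lower (29.6% and 18.5%). ERLEC1, a lectin of the degradation pathway, rose by 0.52 ± 0.05.

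Among the export genes more rose than fell at 40 nM. Of 18 other COPII and retrieval genes 10 were higher and 1 lower after 24 h at 40 nM (55.6% and 5.56%), with a median log2 difference of 0.24. The shares of all genes there were 14.8% and 16.7%. After 48 h at 40 nM 7 were higher and 1 lower (38.9% and 5.56%), against 10.5% and 10.7% of all genes, with the others not passing. LMAN1, a cargo receptor for glycoproteins leaving the ER, rose by 0.79 ± 0.05 at 24 h and SEC23A, a COPII coat subunit, by 0.62 ± 0.08. At 10 nM 3 of the 18 were higher and 6 lower (16.7% and 33.3%), against 14.4% and 11.9% of all genes. Among the lower ones was TMED2 at -0.50 ± 0.05.

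Most genes of the EIF2AK3 and ATF4 arm were lower at 40 nM. Of its 13 listed genes 11 were lower (84.6%) and none higher after 24 h at 40 nM, with a median log2 difference of -0.90. The shares of all genes there were 16.7% and 14.8%. After 48 h at 40 nM 11 were lower and 1 higher (84.6% and 7.69%), with a median of -0.59, against 10.7% and 10.5% of all genes. ATF4, the factor translated when eIF2α is phosphorylated, fell by 0.64 ± 0.05 at 24 h and by 0.31 ± 0.05 at 48 h. DDIT3 (CHOP), a target of ATF4 linked to cell death, fell by 1.24 ± 0.07 and by 0.75 ± 0.07. TRIB3, a pseudokinase induced by both, fell by 1.31 ± 0.05 and by 1.20 ± 0.05. ATF3 was the gene of this arm that rose after 48 h at 40 nM, by 0.84 ± 0.11, and its 24 h difference was 0.12 ± 0.11. Amino acid shortage also acts through ATF4, and ASNS, asparagine synthetase, which is known as a target in both settings, fell by 1.86 ± 0.06 at 24 h.

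After 48 h at 10 nM 5 of the 13 were higher and 4 lower (38.5% and 30.8%), against 14.4% and 11.9% of all genes. ATF4 differed by 0.07 ± 0.05 there and TRIB3 by -0.02 ± 0.05, and DDIT3 and ATF3 rose by 0.37 ± 0.07 and 1.08 ± 0.11. At 40 nM against 10 nM none of the 13 was higher and 10 were lower (76.9%), where 11.9% of all genes were higher and 14.5% lower. Among other UPR regulators EIF2S1, which encodes eIF2α, fell by 0.68 ± 0.05 after 24 h at 40 nM. CREB3L1, a relative of CREB3L2, fell by 0.60 ± 0.10 after 24 h at 40 nM, 0.68 ± 0.10 after 48 h at 10 nM and 0.91 ± 0.10 after 48 h at 40 nM, and CASP4, an inflammatory caspase, rose by 0.70 ± 0.12, 0.57 ± 0.12 and 0.43 ± 0.12. Of those 16 genes 1 was higher and 5 lower after 24 h at 40 nM (6.25% and 31.2%), against 14.8% and 16.7% of all genes.

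Most genes of the heat shock list, of chaperones mostly outside the ER, were higher at 24 h. Of its 21 measured genes 17 were higher and 3 lower after 24 h at 40 nM (81% and 14.3%), with a median log2 difference of 0.53. The shares of all genes there were 14.8% and 16.7%. After 48 h at 40 nM 8 were higher and 2 lower (38.1% and 9.52%), against 10.5% and 10.7% of all genes. HSPB8, a small heat shock protein, rose by 2.0 ± 0.07 at 24 h. HSPA13, an Hsp70 associated with microsomes, fell by 1.25 ± 0.10 at 24 h. At 10 nM 3 of the 21 were higher and 7 lower (14.3% and 33.3%), with HSPB1 at -0.85 ± 0.06. The shares of all genes at 10 nM were 14.4% and 11.9%, so the share of rises was near that of all genes.

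**Figure D5:**
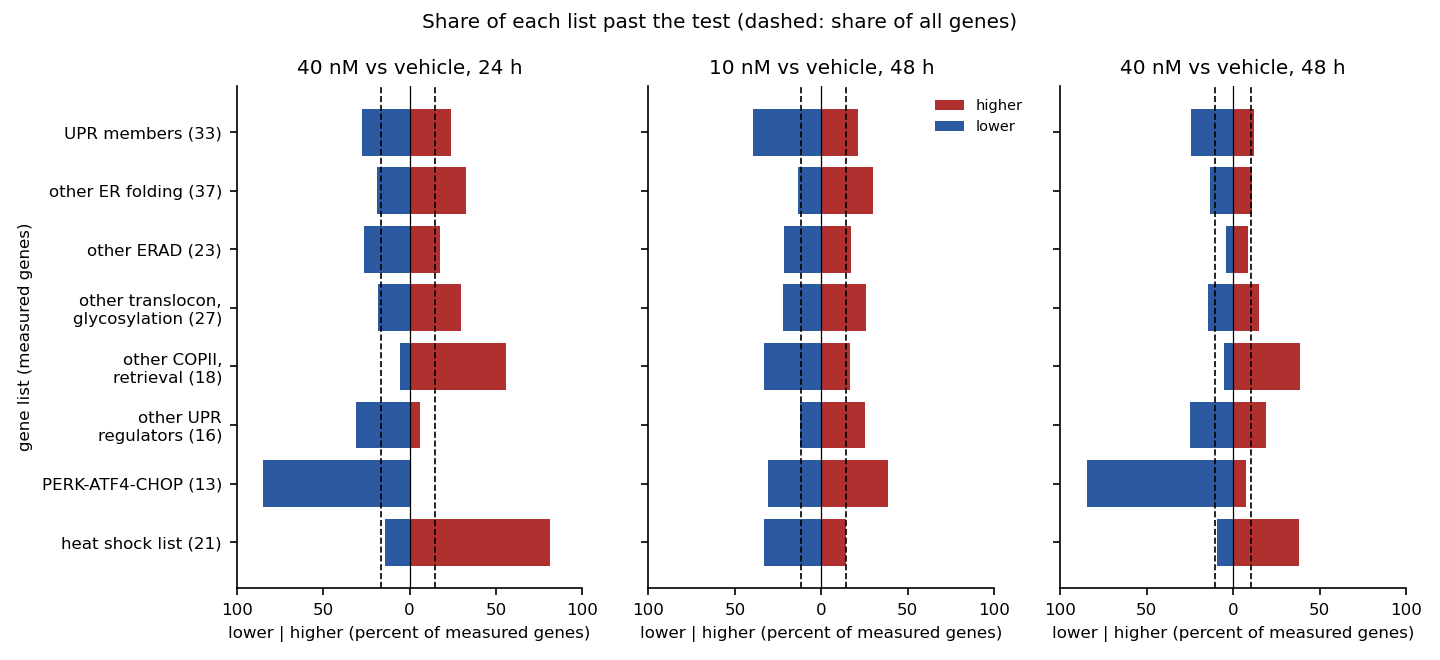
Share of the measured genes of each list (rows, number measured in brackets) that passed limma's test as higher (red, to the right) or lower (blue, to the left) in 3 comparisons with vehicle, with dashed lines at the shares of all 19775 genes. At 40 nM the EIF2AK3 and ATF4 arm, labelled PERK-ATF4-CHOP, extends to the left, with 84.6% lower at both times.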

How the data were processed

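The deposited table holds 1 log2 value for each of 54675 probe sets on each of 15 arrays. Per the submitters' processing notes, the authors ran RMA with Affymetrix Expression Console (version not given in the sources used here), which corrects background, equalises array distributions and summarises the probes of a set, so levels of different probe sets are not compared. The platform annotation names 1 gene symbol for 41091 probe sets and several for 1801, and 11721 carry none here. Older symbols were replaced by way of the gene ID.

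limma 3.58.1, run in R 4.3.3 with lmFit and eBayes, fitted the 5 group means to the 15 arrays together (10 residual degrees of freedom), with two-sided tests and Benjamini-Hochberg adjustment over 19775 genes. The vehicle groups of the 2 times were compared after quantile normalization over 15 arrays. Lists are described by counts and medians, with no set test. The members, lists and tests were chosen with earlier results of these data known. Every member is accounted for, and members that passed against vehicle were described first. From each other list up to 2 of the largest rises and 2 of the largest falls that passed in a comparison could be named, and HSP90B1, ATF4, DDIT3, ATF3 and TRIB3 were named in every case. The fit was tested on simulated data. Promoter windows are those of RefSeq, GRCh38.p14. The last residues of the member proteins were not analysed here. Arrays have no read depth, and their number limits the precision.

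The alternatives were cyclic loess or quantile normalization over all arrays, array medians subtracted, the dimmest 40% of genes left out, a floor at the 20th percentile, the probe sets of each gene averaged, probe sets whose names mark shared sequences (ending in _x_at or _s_at) left out, a trended robust prior, weights per array, a fit of the compared groups alone, the replicate block and each array left out in turn.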

Additional observations from a re-analysis of the deposited data

Results flagged for a closer look

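The effect of 40 nM differed between 48 h and 24 h, by a test of that difference itself, in 10 members. The values here are the log2 difference from vehicle at 48 h minus that at 24 h, ± SE, with limma's adjusted p over all genes. Some effects were higher at 48 h. SDF2L1 had 0.69 ± 0.11 (0.00038), MANF 0.58 ± 0.07 (7.6e-05) and ERO1A 0.57 ± 0.07 (6.6e-05), each having been lower than vehicle at 24 h. DNAJB9 had 0.45 ± 0.14 (0.039).

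Other effects were lower at 48 h. SEC24D had -1.03 ± 0.16 (0.00043) and CREB3L2 -0.94 ± 0.08 (3.3e-06), both having been higher than vehicle at 24 h. HERPUD1 had -0.55 ± 0.08 (0.00015). CRELD2 had -0.33 ± 0.10 (0.045), P4HB -0.28 ± 0.07 (0.015) and PDIA3 -0.28 ± 0.06 (0.0079). Without shared-sequence probe sets CREB3L2 was -0.07, HERPUD1 -0.39, DNAJB9 0.14 and CRELD2 -0.33, and with the mean of probe sets P4HB was -0.25 and PDIA3 -0.20, none of which passed.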

How the results depend on the processing

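Of 2988 refits of single members under the alternatives, 2677 kept direction and side of the threshold, 101 lost a call, 99 gained one, 15 turned direction with a call in either fit and 96 changed sign with no call in either. With 3 arrays a group, falls near 0.2 on the log2 scale could not be told from the spread in every setting.

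Counts of members that moved by over 1.5 times are listed here. The ranges with 1 array left out stand beside them and include counts that moved less. The shares of all genes under the alternatives, the replicate block among them, are not given. These counts therefore describe the fits and are no result about the members. After 24 h at 40 nM 4 members, not 8, were higher with the compared groups alone (CANX, DNAJC10, P4HB and PDIA3 lost their calls), and 7 to 11 with 1 array left out, where falls stayed at 9. After 48 h at 10 nM 4, not 7, were higher with the mean of probe sets. With 1 array left out 4 to 7 were higher, 4 without vehicle replicate 2 or 3 or 10 nM replicate 1 or 2, and falls stayed at 13. After 48 h at 40 nM 7, not 4, were higher without shared-sequence probe sets, and 3 to 4 with 1 array left out. There 3 to 6 members, not 8, were lower with 1 array left out: 5 without vehicle replicate 1 or 2, 4 without vehicle replicate 3 or 40 nM replicate 1, 3 without 40 nM replicate 2 and 6 without 40 nM replicate 3. For 40 nM against 10 nM 4, not 7, were lower with the mean of probe sets and 3 without shared-sequence probe sets, and 8 to 9 were higher and 6 to 7 lower with 1 array left out. For the effect at 48 h minus 24 h 2, not 4, were upward without shared-sequence probe sets, and 3 to 4 upward and 5 to 6 downward with 1 array left out. For vehicle at 48 h against 24 h, the deposited values gave 18 higher and 1 lower, not 3 and 19, and 2 to 3 and 15 to 19 with 1 array left out.

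With the mean of probe sets, ATF6 turned to 0.21 after 24 h at 40 nM, PDIA3 to 0.054 and SSR1 to -0.15 at 10 nM, and DERL1 to 0.031 and SSR1 to 0.24 for 40 nM against 10 nM. Without shared-sequence probe sets, HERPUD1 turned to 0.15 after 24 h at 40 nM, CALR to -0.037, PDIA6 to 0.10, CREB3L2 to 0.23 and SSR1 to -0.37 at 10 nM, and DERL1 to 0.25 after 48 h at 40 nM. For 40 nM against 10 nM, PDIA6 turned to -0.065, CREB3L2 to -0.18, DERL1 to 0.16 and SSR1 to 0.63. Each of these reads another probe set of the gene, and a cause beyond that was not tested.

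The difference between times of CRELD2 lost its call without any of 9 single arrays (adjusted p 0.068 to 0.11) and that of DNAJB9 without any of 8 (0.055 to 0.10). With the replicate number as a block, the counts were 8 and 9 after 24 h at 40 nM, 7 and 13 at 10 nM, 4 and 8 after 48 h at 40 nM, 9 and 7 for the doses, 4 and 5 for the times and 3 and 19 for vehicle, and the block ended the time calls of CRELD2 (0.066) and DNAJB9 (0.065) and added that of PPP1R15A (0.30, adjusted p 0.046). Arrays of the same number did not deviate together: the correlation of their deviations lay between -0.46 and 0.50, over 0.1 in 10 of 30 pairs, so the numbers were not taken as pairs.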
